A study of Mastomys natalensis with 4 samples.

Results

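The Reg family of small secreted lectins was read on mouse U74 expression arrays in gastric mucosa taken from Mastomys natalensis, a rodent of Africa whose stomach readily forms endocrine cell tumours. The members were chosen by gene symbol: every probe set whose single symbol in the platform's annotation was Reg1, Reg2, Reg3a, Reg3b or Reg3g. That gave 10 probe sets, 2 for each of the 5 genes, of 12422 probe sets other than controls. For each gene the probe set with the higher mean intensity over the 4 samples is called A here and the other B.

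Total RNA came from 2 samples after 8 weeks of loxtidine, spelled loxitidine in the labels, a stage labelled as hyperplasia of the enterochromaffin-like (ECL) cells. A further 2 samples came after 16 weeks, a stage labelled as ECL cell neoplasia. Loxtidine blocks the histamine H2 receptor and thereby suppresses acid secretion, and all 4 samples came from treated animals. Treatment time cannot be told apart from lesion stage, since the groups differ in both, and untreated mucosa was not analysed here. Strain, sex, age and any pooling of animals are not given in the labels used here.

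Reg proteins are C-type lectin-like proteins secreted by epithelia and exocrine glands. Reg1 and Reg2 are best known from the exocrine pancreas and from regenerating islets, and Reg1 is also made in the stomach, where gastrin raises it and where it promotes growth of the mucosa. Reg3a, Reg3b and Reg3g are known from the intestine and the inflamed pancreas. Reg3g and Reg3b bind bacterial surfaces, and interleukin-22 and interleukin-6 type cytokines acting through STAT3 induce them.

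The arrays held the labelled tissue's defining transcripts: the proton pump subunit Atp4a of parietal cells read between 4034 and 5304, the surface cell peptide Tff1 between 4094 and 4910, and intrinsic factor (Cblif) between 1147 and 1715. The mucous neck cell peptide Tff2 was dim, at 23.4 and 37.4 against 10.8 and 15.8 (-1.09 ± 0.33, SE). The probe set of Hdc, the histamine-forming enzyme of ECL cells, lay under the floor in all 4 samples. The floor, 12.15, is the intensity below which a probe set was treated as too dim to rank, and between 55.3% and 62.4% of probe sets lay above it on each array. The probes were designed on mouse sequence, so low signal need not mean that the Mastomys transcript was scarce, and levels are compared only for the same probe set between samples. The number of arrays limits the precision. In these bulk samples fewer cells of a type and less RNA per cell cannot be told apart.

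Of the 10 Reg probe sets, 5 passed the filter of lying above the floor on at least 2 of 4 arrays, and they stand for 4 genes: Reg1, Reg2, Reg3a and Reg3b, the last with both of its probe sets. The other 5 included both probe sets of Reg3g. The annotation ties the 2 probe sets of Reg1, Reg2, Reg3a and Reg3g to different sequence records, so the pairs need not read the same stretch of a transcript. It gives no record for Reg3b probe set B.

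**Figure D1:**
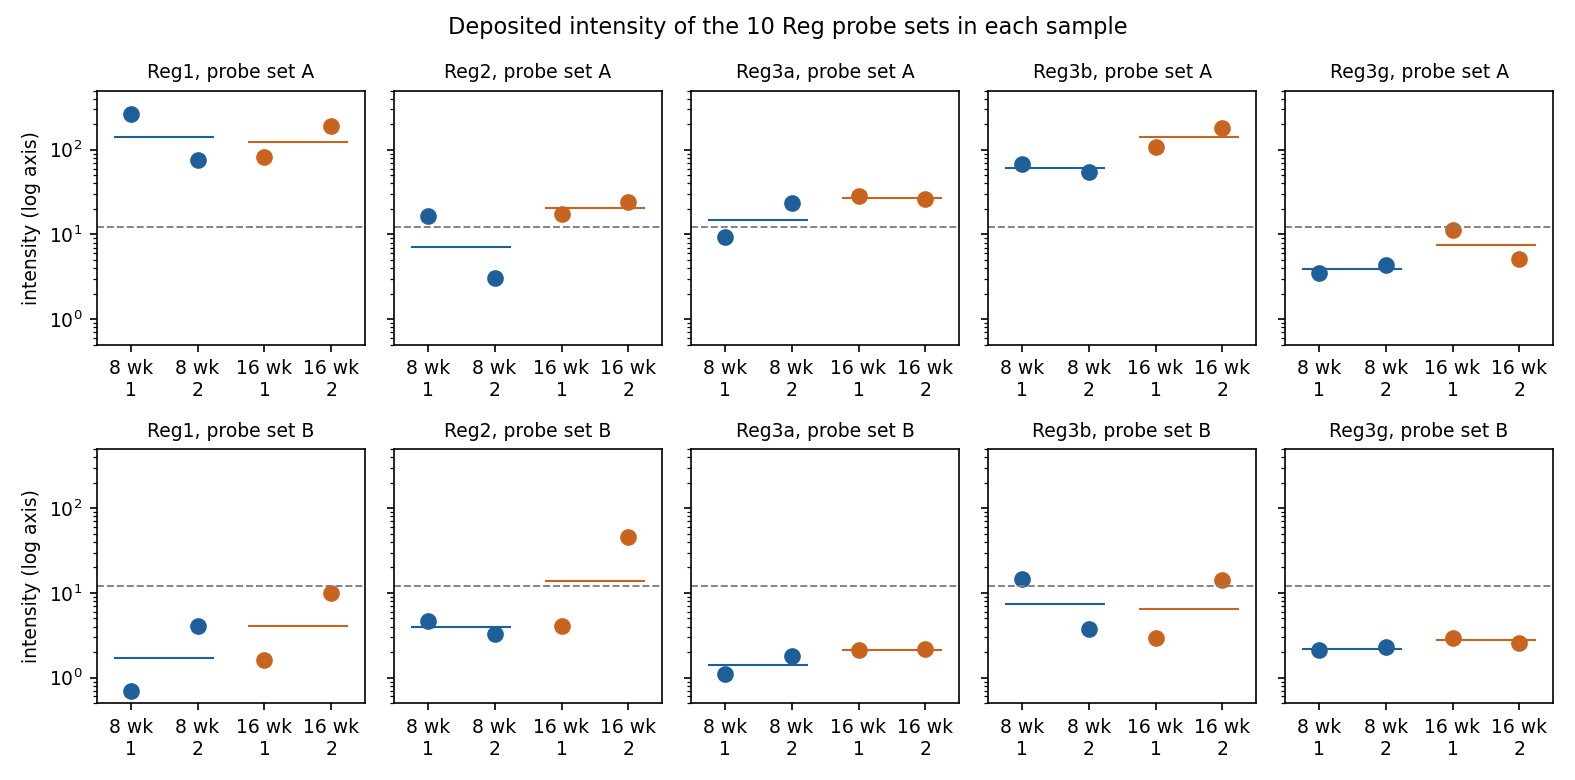
Deposited intensity (log axis) of each Reg probe set in the 2 samples at 8 weeks (blue) and the 2 samples at 16 weeks (orange), with the group's geometric mean as a short line and the floor of 12.15 as a dashed line. Reg1 probe set A is high in 8-week sample 1 and 16-week sample 2, Reg3b probe set A is above its 8-week values in both 16-week samples, and both Reg3g probe sets lie under the floor throughout.

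Reg1, the growth-promoting lectin of the gastric mucosa and pancreas, read 266 and 74.9 in 8-week samples 1 and 2 on probe set A (160213_at). In 16-week samples 1 and 2 it read 82.2 and 188. The highest and the lowest of these values both belong to the 8-week group, so the groups overlap completely. The log2 difference, 16 minus 8 weeks, was -0.18 ± 0.72 (SE, n = 2 and 2), with a 95% interval of -2.03 to 1.67, wide enough to hold a change of more than 2-fold in either direction. Its limma adjusted p was 0.911. Reg1 probe set B (162312_f_at) lay under the floor in every sample, at 0.7, 4.1, 1.6 and 10.1 in the same order, and gave no measurement.

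Reg2, a close relative of Reg1 that is likewise made in the pancreas, was dim. Probe set A (161302_r_at) read 16.6 and 3.1 in the 8-week samples, then 17.4 and 24.3 in the 16-week samples. Both 16-week values lay above both 8-week values, although 17.4 and 16.6 are nearly the same. The log2 difference was 0.53 ± 0.31 (SE, n = 2 and 2; 95% interval -0.26 to 1.32; limma adjusted p = 0.470). Because 8-week sample 2 was raised to the floor, this value depends on where the floor lies, and with a lower floor it was 1.17. It was 0.29 without 16-week sample 2, 0.31 without 8-week sample 2 and 0.35 both on a common median and after quantile normalization. Probe set B (95786_at) read 4.7 and 3.3 at 8 weeks and 4.1 in 16-week sample 1, all under the floor, but 46.3 in 16-week sample 2. That single reading is 3.81 times the floor, and it has no replicate. Both Reg2 probe sets were therefore highest in 16-week sample 2.

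Reg3a, a member of the antimicrobial branch, read 9.3 and 23.6 at 8 weeks, then 28.4 and 26.0 at 16 weeks on probe set A (103954_at). The values of 8-week sample 2 and of both 16-week samples lie close together, and the low reading of 8-week sample 1 sets the difference between the groups. That difference was 0.68 ± 0.38 on the log2 scale (SE, n = 2 and 2; 95% interval -0.29 to 1.66; limma adjusted p = 0.456). Because 8-week sample 1 was raised to the floor, this value depends on where the floor lies. With a lower floor it was 0.88. Without 8-week sample 1 it was 0.20, and without 8-week sample 2 it was 1.16. Reg3a probe set B (161642_f_at) read between 1.1 and 2.2 and was not measured above the floor in any sample.

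Reg3b, a lectin of inflamed pancreas and gut that binds bacteria, gave the largest difference between the stages among the 5 tested Reg probe sets. Probe set A (96009_s_at) read 67.7 and 54.0 in the 8-week samples and 107 and 182 in the 16-week samples. Both 16-week samples lay above both 8-week samples, and all 4 readings were well above the floor. The log2 difference was 1.21 ± 0.35 (SE, n = 2 and 2), which is 2.31-fold, with a 95% interval of 0.32 to 2.10. The unadjusted p of limma was 0.0172 and the adjusted p 0.325, so the difference did not pass. By p-value it ranked 410 of the 7883 probe sets tested. With any 1 of the 4 samples left out the difference ran from 0.83 to 1.59. Its direction could not reverse in those fits, because the groups do not overlap.

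Reg3b probe set B (161890_f_at) did not give this pattern, reading 14.6 and 3.8 in the 8-week samples and 2.9 and 14.1 in the 16-week samples. It lay just above the floor in 8-week sample 1 and 16-week sample 2 and under it in the others, and its log2 difference was -0.03 ± 0.25 (SE, n = 2 and 2; limma adjusted p = 0.972). The suffixes of the names mark A as holding probes shared between similar transcripts and B as one for a family of similar sequences. Signal from other Reg3 transcripts in either of them was not tested. With the mean of both probe sets in place of each alone the Reg3b difference was 0.59.

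Reg3g, the gut lectin that kills Gram-positive bacteria, was not measured. Probe set A (96064_at) read 3.5, 4.3, 11.2 and 5.1 over the 4 samples in the same order, and probe set B (162187_f_at) read between 2.1 and 2.9. All 8 readings lie under the floor, so no fold or order is drawn from them.

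By limma's Benjamini-Hochberg adjusted p over all 7883 probe sets tested, 0 of the 5 tested Reg probe sets passed. The background was the same: 0% of all tested probe sets passed, and the smallest adjusted p of any probe set was 0.301. At an unadjusted p under 0.05 limma gave 1 Reg probe set, Reg3b A, against 14.0% of all tested probe sets in either direction, 8.08% higher and 5.87% lower at 16 weeks. A positive difference was seen in 3 of the 5 and in 56.3% of all tested probe sets. In 3 of the 5 Reg probe sets (Reg2 A, Reg3a A and Reg3b A) both 16-week values lay above both 8-week values, against 28.7% of all tested probe sets, and in 0 both lay below, against 20.6%. The smallest 2-sided p that exact permutation allows for 2 samples against 2 is 0.333, so limma's p-values lean on the spread pooled over probe sets. Whether a group's samples stand for separate animals is not stated in the labels, so the p-values reflect no more than how these samples scatter, and that scatter may be technical.

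**Figure D2:**
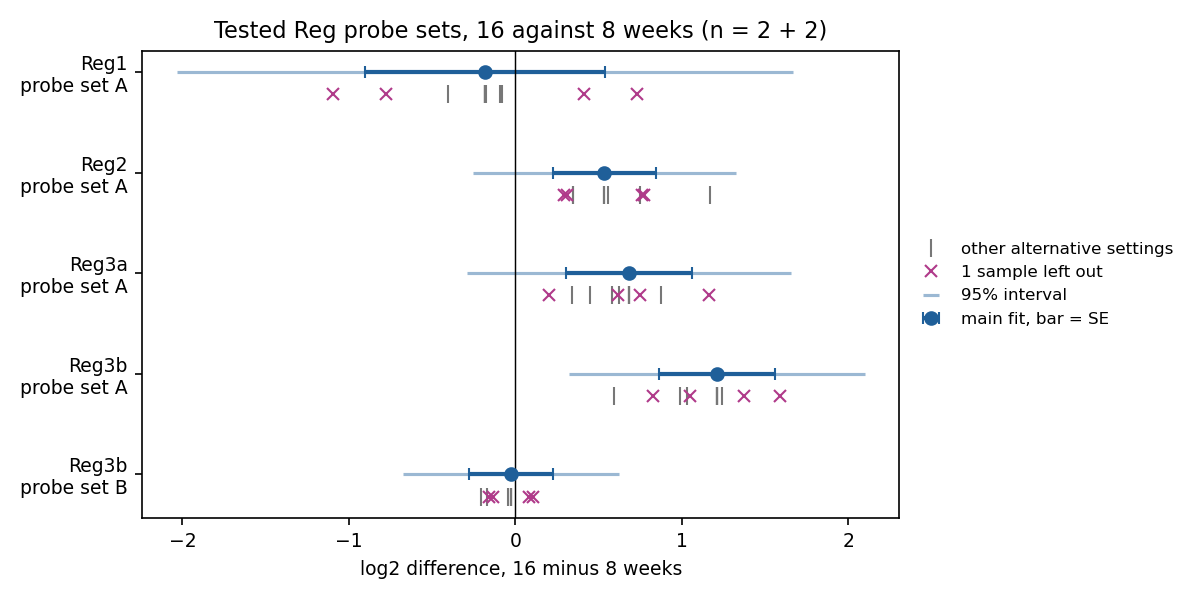
Log2 difference, 16 minus 8 weeks, for the 5 tested Reg probe sets, with the SE (dark bar) and the 95% interval (pale bar) from limma on 2 and 2 samples. Crosses are fits with 1 sample left out and ticks are the other alternative settings. Reg3b probe set A stays above 0 throughout, which for the crosses follows from groups that do not overlap. Reg1 runs from -1.10 to 0.73 as samples are left out.

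All tested probe sets had a median difference of 0.09 and a median absolute difference of 0.36. Reg1 at -0.18 and Reg3b B at -0.03 lie inside that absolute median. Reg2 at 0.53 and Reg3a at 0.68 lie beyond it, as does Reg3b A at 1.21. With the arrays on a common median the median of all tested probe sets moved from 0.09 to -0.11, and Reg3b A then gave 0.99. After quantile normalization that median was 0.02 and Reg3b A gave 1.24.

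**Figure D3:**
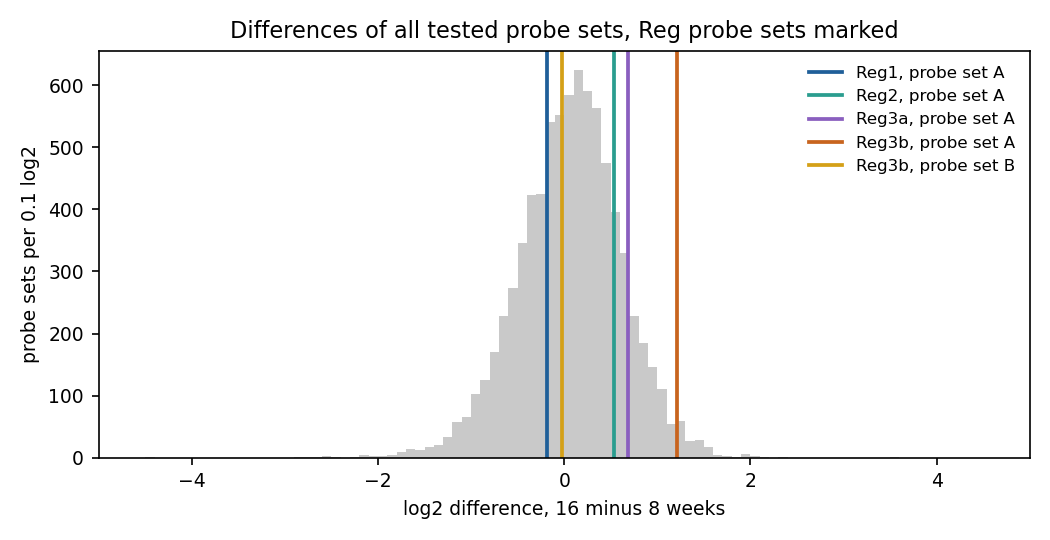
Histogram of the log2 difference, 16 minus 8 weeks, over all 7883 tested probe sets, with the 5 tested Reg probe sets as vertical lines. Reg1 A at -0.18 and Reg3b B at -0.03 fall in the centre of the distribution, and Reg3b A at 1.21 falls in its right flank.

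Samples of the same group differed more in Reg1 than the groups did. The Reg1 intensity of 8-week sample 1 was 3.55-fold that of sample 2, and 16-week sample 2 was 2.29-fold above sample 1. A difference past 2-fold in either direction between the 8-week samples was seen in 8.04% of tested probe sets, and between the 16-week samples in 9.25%. In the Reg1 pattern 8-week sample 1 and 16-week sample 2 each lie past 2-fold above the other sample of their group. It was seen in 38 of 7883 probe sets or 0.482%. That share asks for both groups at once in directions taken from Reg1 itself, so it cannot be set against the shares above. With 1 sample on each side the ratios within a group have no test. None of the other 4 tested Reg probe sets was past 2-fold in either group on the floored scale. With a lower floor 4 of the 5 were past 2-fold between the 8-week samples and 2 between the 16-week samples. Reg3a came nearest, lower in 8-week sample 1 by a log2 ratio of -0.96.

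Most of the pancreatic acinar genes tested were higher in the samples in which Reg1 was high. Of 33 listed acinar genes 17 were named by the annotation and 15 were tested, and their summed intensity was 4707 and 1467 in the 8-week samples and 2821 and 8107 in the 16-week samples. Chymotrypsinogen B (Ctrb1), a digestive protease precursor, read 1514 and 223 in the 8-week samples and 541 and 2734 in the 16-week samples. The elastase Cela1 read 834 and 212 against 226 and 1586, and the bile salt-dependent lipase Cel 1062 and 279 against 1241 and 1981. Past 2-fold in both groups in the Reg1 direction were 6 of the 15, beside 0.482% of all tested probe sets. They were Cela1, Ctrb1, Ctrl, Amy1, Rnase1 and Zg16, the last 4 of which were named after their values were seen. Of the 15, 12 had the Reg1 direction in both groups at any size, as did 14.0% of all tested probe sets. Clps (395 and 484 against 391 and 389), Rbpjl and Nr5a2, also named after their values were seen, did not have it. Between the stages most acinar genes had the opposite sign to Reg1, but a difference between them and Reg1 was not tested. At 16 weeks 14 of the 15 were higher, beside 56.3% of all tested probe sets, with a median difference of 0.59. Reg1 gave -0.18 ± 0.72 (SE), and its interval of -2.03 to 1.67 holds the acinar median. None of the 15 had an unadjusted limma p under 0.05. No acinar gene was at 0 throughout, and Spink1 and Sycn lay under the floor in all samples. The median log2 ratio of the acinar genes was 1.07 for 8-week sample 1 over sample 2 and 1.76 for 16-week sample 2 over sample 1, beside 1.83 and 1.19 for Reg1. Reg1 was thus above the acinar median in the 8-week contrast and below it in the 16-week contrast. The part of acinar tissue in the Reg1 and Reg2 readings was not tested.

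Markers of intestinal epithelium had their highest sum in 8-week sample 1 and their lowest in 16-week sample 2. The 17 tested genes summed to 6208 in 8-week sample 1 and to 1796, 1418 and 1176 in 8-week sample 2, 16-week sample 1 and 16-week sample 2. By gene, 15 of the 17 were higher in 8-week sample 1 than in sample 2. Between the 16-week samples 9 of the 17 were higher in sample 2, with a median log2 ratio of 0.01. The lower sum of 16-week sample 2 was thus not shared by most of the genes. Apolipoprotein Apoa4 of enterocytes read 2948 and 616 at 8 weeks, then 504 and 246 at 16 weeks. The epithelial galectin Lgals4 read 359 and 155 against 79.5 and 92.5. Glutathione peroxidase Gpx2, the other bright member, read 638 and 576 against 415 and 417. None of the 17 was past 2-fold in both groups in the Reg1 direction, beside 0.482% of all tested probe sets. At any size 8 of the 17 had that direction, beside 14.0% of all tested probe sets. The high Reg1 value of 8-week sample 1 thus stands in a sample where acinar and intestinal markers were both high, and that of 16-week sample 2 in one where the acinar sum was high and the intestinal sum was not. The summed intensity of the 13 tested squamous forestomach genes was also highest in 16-week sample 2, with sums of 1905 and 2023 in the 8-week samples and 1700 and 3262 in the 16-week samples. Its keratin Krt4 read 190 and 151 against 104 and 518 and the desmosomal protein periplakin (Ppl) 122 and 113 against 108 and 184, but the brightest member, Sprr1b, read 1069 and 1269 against 1191 and 1279. Of the 13, 12 were higher in 16-week sample 2 than in sample 1, with a median log2 ratio of 0.74 beside -0.05 for all tested probe sets. The Reg1 direction in both groups at any size was seen in 8 of the 13, beside 14.0% of all tested probe sets. Past 2-fold in both were 0 of the 13, beside 0.482%. Of the islet list 4 genes were tested, with sums of 144 to 205, and the brightest of them were Ppy (50.2 to 76.1), Abcc8 (22.7 to 34.5) and Kcnj11 (37.4 to 96.3). Insulin itself was not tested: an Ins2 probe set, named after its value was seen, reached 250.3 in 8-week sample 1 but only 3.3, 2.9 and 8.4 elsewhere, and a second lay under the floor in all 4. Ins2 was thus above the floor in the sample with the highest Reg1 value and in no other. The part of these tissues in the Reg readings was not tested.

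**Figure D4:**
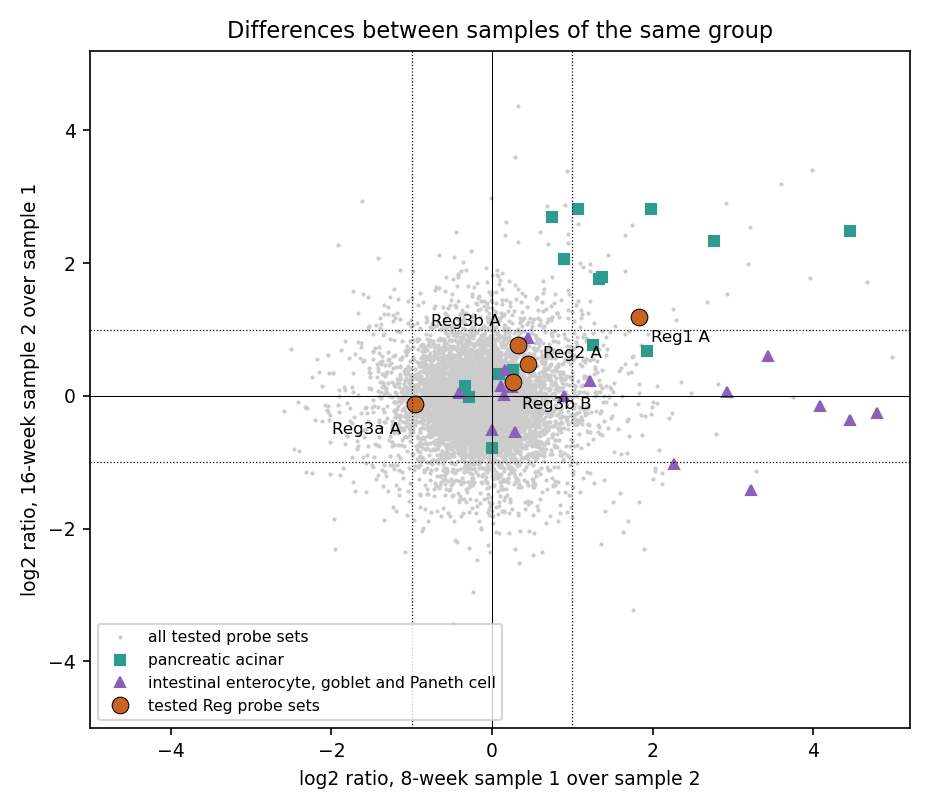
Each point is a probe set, placed by its log2 ratio of 8-week sample 1 over sample 2 (horizontal) and of 16-week sample 2 over sample 1 (vertical) on the floored scale, with dotted lines at 2-fold. Grey points are all 7883 tested probe sets, squares the 15 acinar genes, triangles the 17 intestinal genes and circles the Reg probe sets. Reg1, at 1.83 and 1.19, lies among the acinar genes in the upper right, and the other Reg probe sets lie near the centre or, for Reg3a, at -0.96 on the left.

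Gastrin (Gast), the antral hormone that raises Reg1, was highest in 8-week sample 1, as Reg1 was. On each of its tested probe sets it was also higher in 16-week sample 2 than in sample 1. It thus had the Reg1 direction in both groups, as did 14.0% of all tested probe sets. Both 16-week samples read lower than either 8-week sample, as in 20.6% of all tested probe sets. On its brightest probe set by mean log2 value, Gast read 328 and 170 at 8 weeks, then 25.8 and 63.0 at 16 weeks (log2 difference -2.55 ± 0.55, SE; limma unadjusted p = 0.00554, adjusted p = 0.307). Its other tested probe sets read 889 and 182 against 2.7 and 26.8 (-4.48 ± 0.84, SE) and 173 and 33.9 against 11.6 and 14.1 (-2.55 ± 0.78, SE). On both of these 16-week sample 1 lay under the floor. Cckbr, which encodes the receptor for gastrin, read 116 and 120 at the earlier stage and 151 and 182 at the later.

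The profiles of the tested Reg probe sets were compared as the root mean square distance between their log2 values, each centred on its mean over the 4 samples. The closest pair was Reg2 with Reg3b B, 0.30 apart. On the floored scale Reg3b B varies little, spanning 0.265 log2, while Reg2 spans 1. Reg2 and Reg3b A were 0.35 apart and share 16-week sample 2 as their highest sample. The most distant pair was Reg1 and Reg3a, at 1.17, which move in opposite directions between the 8-week samples. Reg1 lay 0.89 from Reg3b A. The 2 Reg3b probe sets lay 0.65 apart, as far as Reg1 lay from Reg2 (0.65).

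The same distance gave the genes most like each Reg gene, over 4 samples that leave little room to tell profiles apart. Nearest to Reg1 of 5863 genes were Mllt1, a transcription elongation cofactor, Plekha1, Vps16, a part of the machinery that delivers cargo to lysosomes, Dgat1, an enzyme of triglyceride synthesis, and Ilvbl. They lay 0.12 to 0.19 from it. Plekha1, for example, read 33.5, 5.8, 8.5 and 23.7 over the 4 samples, and so lay partly under the floor. By each gene's brightest probe set 107 genes, or 1.83%, lay within 0.5 of Reg1, among them 1 of the 15 acinar genes, Amy1. The median distance from Reg1 was 0.81 for the acinar list and 0.90 for all genes. It was smaller than the acinar value for the squamous list (0.77) and for 2 lists described below. These were the epithelial defence proteins (0.73) and the neutrophil and macrophage markers (0.79). For the remaining lists it was larger. The mucosal scavenger protein Dmbt1, named after its value was seen, lay 0.33 from Reg1. Dmbt1 read 117 and 18.3 in the 8-week samples and 28.4 and 75.9 in the 16-week samples. The hepatocyte gene Apob, likewise named after its value was seen, lay 0.31 from Reg1, nearer than Amy1 or Dmbt1.

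Nearest to Reg3b A were Rtl6, an immunoglobulin kappa segment (Igkv14-111), Nynrin, the potassium channel gene Kcnj9 and a histone H2B gene (H2bc22), 0.05 to 0.10 away. Within 0.5 of it lay 904 genes, or 15.4%, so many genes have a profile close to that of Reg3b A. Nearest to Reg2 were Gng12, Nsmce3, Folr2, Gm35585 and Cyb5r1, and nearest to Reg3a were Pdcd6, Gapdhs, Ryr3, Hand1 and Smndc1. Within 0.5 of Reg2 lay 55.2% of genes and within 0.5 of Reg3a 51.1%, so these dim probe sets hardly separate one profile from another.

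**Figure D5:**
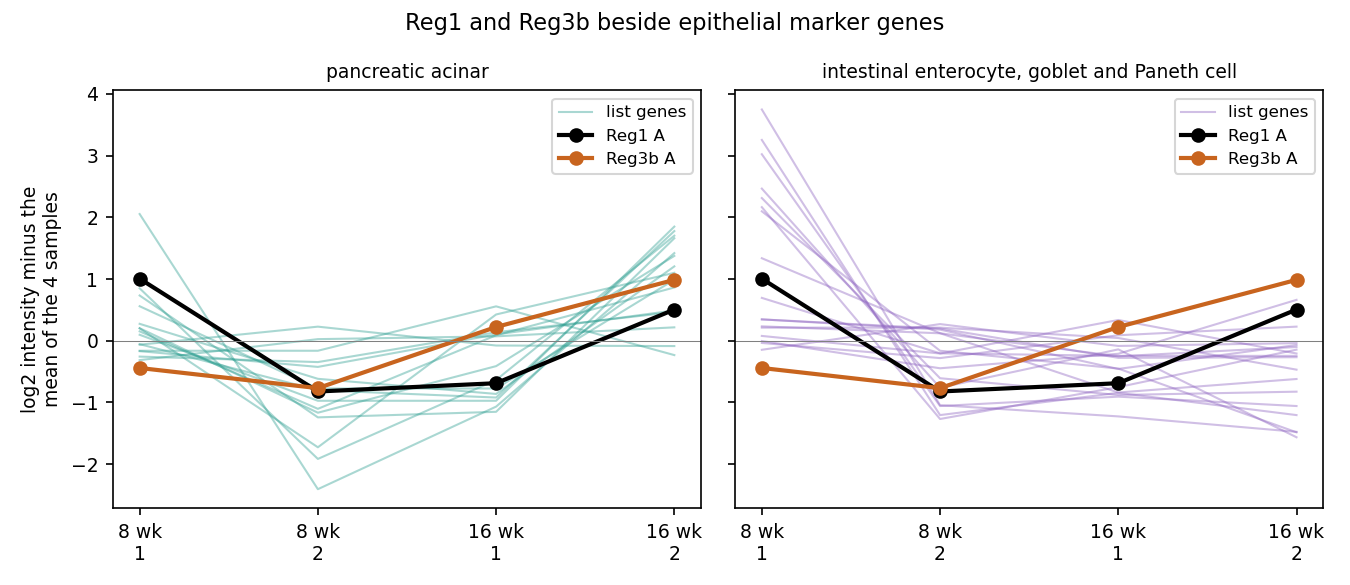
Log2 intensity minus the gene's mean over the 4 samples for Reg1 (black) and Reg3b probe set A (orange), with thin lines for the 15 acinar genes (left) and the 17 intestinal genes (right). Reg1 and most acinar genes are high in 8-week sample 1 and 16-week sample 2, several intestinal genes are high in 8-week sample 1 alone, and Reg3b is highest in 16-week sample 2.

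The cytokine pathway that induces Reg3 genes was followed with a list of 37 genes, of which the annotation named 29 and 21 were tested. Of the 21, 14 read higher at 16 weeks and 7 read lower, beside 56.3% higher among all tested probe sets. Their median difference was 0.16 beside 0.09 for all tested probe sets. None passed limma's adjusted test, and at an unadjusted p under 0.05 there were 2 higher and 1 lower, beside 8.08% higher and 5.87% lower among all tested probe sets. Of the ligands, cardiotrophin 1 (Ctf1), a cytokine of the interleukin-6 family, was above the floor in all 4 samples, at 39.4 and 52.5 against 59.5 and 51.3 on its brighter probe set (0.28 ± 0.27, SE). The other read 10.1 and 7.6 against 19.9 and 22.1 (0.79 ± 0.23, SE), with both earlier values under the floor. Interleukin-6 (Il6) read 1.6 and 1.4 in the 8-week samples and 10.1 and 5.7 in the 16-week samples, and Il10 and Il11 also lay under the floor in every sample. Il17a was above the floor only in 8-week sample 2, at 13.5. Interleukin-22 and its receptor chain Il22ra1 were not named by the annotation, so neither ligand nor specific receptor of the main Reg3 inducer was read.

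Among receptors and signal carriers, the transcription factor Stat3 read 119 and 130 at 8 weeks, then 162 and 149 at 16 weeks on its brighter probe set, a difference of 0.32 ± 0.24 (SE), and gave 0.49 ± 0.23 on the other. On each, both 16-week values lay above both 8-week values, as in 28.7% of all tested probe sets. Neither passed limma's adjusted test. Socs1, a feedback inhibitor of cytokine signalling, read 30.4 and 42.1 against 67.5 and 57.6 (0.80 ± 0.28, SE). The TNF receptor Tnfrsf1a read 45.4 and 51.0 against 73.7 and 82.9 (0.70 ± 0.24, SE). The leukaemia inhibitory factor receptor Lifr read 27.3 and 43.0 against 14.8 and 18.8 (-1.04 ± 0.33, SE), but 0.46, 0.80 and -0.06 on its other tested probe sets. Socs3, the feedback inhibitor most closely tied to STAT3, read 36.4 and 24.6 against 43.2 and 23.1 on its brighter probe set (0.08 ± 0.41, SE), with larger ratios between samples of a group than between the groups. Its other tested probe set read 6.9 and 8.6 against 13.3 and 14.2 (0.18 ± 0.23, SE). Both 8-week values lay under the floor, and the lack of overlap stands beside the same 28.7%.

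Other proteins of epithelial defence were near the background as a list. Of 14 tested genes 8 read higher at 16 weeks and 6 read lower, beside 56.3% higher among all tested probe sets, and the median was 0.11 beside 0.09. At an unadjusted limma p under 0.05 there were 0 higher and 2 lower, beside 8.08% and 5.87% of all tested probe sets. Serum amyloid A3 (Saa3), an acute-phase protein of inflamed epithelium, read 47.5 and 33.2 in the 8-week samples and 3.7 and 8.2 in the 16-week samples. Its log2 difference of -1.71 ± 0.28 (SE) is a bound, since both 16-week values lay under the floor, and its limma adjusted p was 0.301. The protease inhibitor cystatin C (Cst3) read 1125 and 907 against 579 and 546 (-0.85 ± 0.25, SE). The iron-sequestering lipocalin Lcn2 gave 0.43 ± 0.27 on its brighter probe set and -0.22 ± 0.31 on the other.

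Neutrophil and macrophage markers, read as signs of inflammation, summed over 17 tested genes to 758 and 862 at 8 weeks, then 902 and 942 at 16 weeks. Of the 17, 11 read higher at 16 weeks and 6 read lower, beside 56.3% higher among all tested probe sets. Their median was 0.21 beside 0.09 for all tested probe sets. At an unadjusted limma p under 0.05 there were 1 higher and 0 lower, beside 8.08% and 5.87%. That 1 was the complement chain C1qb of macrophages, which read 67.3 and 100 against 137 and 144 (0.77 ± 0.29, SE). Its partner chain C1qa, named after its value was seen, lay the other way without overlap, at 88.4 and 62.5 against 28.1 and 54.3 (-0.93 ± 0.41, SE). The bright members Csf3r and Cd14, a growth factor receptor of neutrophils and an endotoxin receptor, gave 0.56 ± 0.35 and -0.01 ± 0.28 (SE). The neutrophil protein S100a9 lay under the floor in all samples. Hepatocyte markers, read as a check for neighbouring tissue, summed to 455 to 488 over 10 tested genes, a range that covers opposite movements. Albumin (Alb), the defining member, read 75.8 and 18.0 against 25.4 and 14.4, and Apob 46.0 and 15.4 against 18.5 and 23.9. Both were highest in 8-week sample 1 and both were named after their values were seen. Alb was lowest in 16-week sample 2, where Reg1 was high. Of the 10 genes 4 were higher in 8-week sample 1 than in sample 2. The Reg1 direction in both groups at any size was seen in 2 of the 10, beside 14.0% of all tested probe sets. Prothrombin (F2) gave -1.17 ± 0.25 and Apoa2 1.22 ± 0.32 (SE), with unadjusted limma p of 0.00507 and 0.0118, while the bright Hp, G6pc and Cyp2e1 gave 0.29, 0.39 and 0.10. The part of these cells in the Reg readings was not tested.

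The heparan sulfate enzyme Extl3, which has been described as a receptor for Reg proteins and was looked up in addition to the lists, read 3.4 and 7.0 in the 8-week samples and 10.8 and 8.9 in the 16-week samples, all under the floor.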

How the data were processed

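The table analysed holds the authors' deposited intensity for each of 12488 probe sets in 4 samples, on a linear scale. The step from scans to intensities was not given in the sources used here. Column means, trimmed by 2% at each end, lay within 4.66% of each other's average, so the deposited scale was kept. Each sample carries a lot label of its own, so no batch could be tested.

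Intensities were raised to a floor of 12.15, the median over arrays of the 40th percentile, before taking log2. Those exceeding it on 2 or more arrays were fitted with limma 3.58.1 in R 4.3.3 (lmFit, eBayes, 2-sided), with Benjamini-Hochberg adjustment over all 7883 and a threshold of 0.05. The scripts were tested on simulated data. The probe set with the highest mean log2 value stood for a gene of a list.

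The members, gene lists and rules were chosen with earlier results of these data known. Named were all Reg probe sets, the 5 nearest genes to each tested Reg probe set spanning at least 1 on the log2 scale, up to 4 members of each list with p under 0.05 and the 3 brightest of each cell type list. Others are described as illustrations of their list. Annotation symbols are those of the mouse and can be old. No sequences or coordinates were used.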

Additional observations from a re-analysis of the deposited data

How the results depend on the processing

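No Reg probe set passed limma's adjusted threshold under any alternative run, and over all probe sets the count stayed at 0 except with no filter on dim probe sets, where it was 22 of 12422. The cause was not tested. With 1 sample left out, Reg1 ranged from -1.10 to 0.73, being positive without 8-week sample 1 (0.73) and without 16-week sample 1 (0.41), and Reg3b B ranged from -0.16 to 0.11, with 0.11 and 0.08 in the same fits. Reg2, Reg3a and Reg3b A kept their direction in all fits that held them. For the fits with 1 sample left out this follows from groups that do not overlap. The number of Reg probe sets past 2-fold between the 8-week samples rose from 1 to 2 after quantile normalization and on a common median and to 4 with a lower floor, and between the 16-week samples from 1 to 2 with a lower floor, where dim readings count for more. In a fit with the replicate number as a block (replicate block) 0 Reg probe sets and 0 of all probe sets passed, and Reg3b A gave 1.21 with an adjusted p of 0.342. The numbers are not said to pair samples, and the deviations of same-numbered samples had a correlation of -0.05 over probe sets. Dim signal limits Reg2, Reg3a and Reg3g most.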
